A study of Mus musculus with 6 samples.

Results

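The Rab GTPases were followed in cultured mouse mast cells, grown from bone marrow of mice without miR-155, a microRNA of activated immune cells (mir-155 KO), or of wild type mice (WT). A gene counted as a Rab GTPase when its platform symbol was Rab, a number and at most a letter with or without a digit, which leaves out effectors and other genes that only carry Rab in their name. This gave 59 of the 19938 genes measured, and all 59 Rab genes that the RefSeq table of mouse assembly GRCm38.p6 lists under this pattern were among them. Both groups came from C57BL/6J mice and were cultured for 5 weeks with IL-3 at 0.5 ng/ml and SCF at 1 ng/ml. Overnight sensitisation with 0.2 µg/ml of IgE against DNP was followed in both groups by 1 h of DNP-HSA antigen at 20 ng/ml, so unstimulated cells were not part of the comparison. Each group had 3 independent cultures with 1 Affymetrix Mouse Gene 1.0 ST array each. The ages of the mice and the construction of the mutant allele were not given in the sources used here.

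Rab proteins are small GTPases that mark the membranes of a cell. Bound to GTP they sit on a particular organelle and recruit effectors such as motors, tethers and fusion factors, exchange factors load them with GTP, GTPase-activating proteins switch them off, and escort proteins and GDP dissociation inhibitors carry them through the cytosol. Mast cells are known for a large store of secretory granules, lysosome-related organelles that fuse with the plasma membrane after IgE receptor cross-linking, and Rab27a, Rab27b, Rab3d, Rab37, Rab44, Rab12 and Rab5 are among the Rabs with a reported part in the making, movement or release of these granules.

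The deleted microRNA and the promoters of 3 Rab genes are shown for context, although none of the 3 genes passed the threshold. The microRNA is the molecule absent from the KO cells, Rab27a and Rab12 had the lowest p values of the family with opposite signs, and Rab3d followed Rab27b among the granule Rabs. All sequences are from RefSeq, build GRCm38.p6. The mature miR-155-5p lies at chr16:84714143-84714165 on the plus strand, and its seed, bases 2 to 8, is in capitals. Promoter windows run from 250 bases before to 50 after an annotated start. Rab27a has 2 such windows, at chr9:73044560-73044859 and chr9:73063898-73064197 on the plus strand, Rab12 has 1 at chr17:66519621-66519920 and Rab3d 1 at chr9:21918134-21918433, both on the minus strand. Capitals in the promoters mark matches on either strand to the E-box CACGTG, the letters bound by MITF and related factors, or to the GC box GGGCGG. The AP-1 site TGANTCA was searched too and had 0 matches in these windows.
mmu-miR-155-5p: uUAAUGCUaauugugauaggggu
Rab27a, first start: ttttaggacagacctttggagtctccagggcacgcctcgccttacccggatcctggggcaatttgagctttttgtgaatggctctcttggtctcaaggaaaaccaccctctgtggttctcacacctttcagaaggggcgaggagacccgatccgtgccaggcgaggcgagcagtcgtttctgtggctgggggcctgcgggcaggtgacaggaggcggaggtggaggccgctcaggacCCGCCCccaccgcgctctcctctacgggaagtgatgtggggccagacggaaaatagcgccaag
Rab27a, second start: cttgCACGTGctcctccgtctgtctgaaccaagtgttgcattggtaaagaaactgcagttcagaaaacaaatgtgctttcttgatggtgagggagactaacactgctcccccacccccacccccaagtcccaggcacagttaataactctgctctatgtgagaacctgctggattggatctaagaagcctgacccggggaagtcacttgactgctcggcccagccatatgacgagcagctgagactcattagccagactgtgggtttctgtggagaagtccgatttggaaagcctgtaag
Rab12: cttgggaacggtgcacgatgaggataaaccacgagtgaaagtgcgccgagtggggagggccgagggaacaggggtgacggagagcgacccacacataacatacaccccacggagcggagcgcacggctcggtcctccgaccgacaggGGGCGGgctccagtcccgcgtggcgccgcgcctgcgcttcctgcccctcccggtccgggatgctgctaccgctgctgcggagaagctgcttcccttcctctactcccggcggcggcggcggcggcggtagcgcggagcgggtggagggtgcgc
Rab3d: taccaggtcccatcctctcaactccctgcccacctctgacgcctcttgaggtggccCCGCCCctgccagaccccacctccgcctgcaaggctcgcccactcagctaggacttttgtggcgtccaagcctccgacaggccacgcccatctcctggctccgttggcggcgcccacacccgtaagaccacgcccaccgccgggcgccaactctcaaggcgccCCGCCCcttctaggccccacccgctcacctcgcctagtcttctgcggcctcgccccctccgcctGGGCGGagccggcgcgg

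The second Rab27a window held 1 E-box, whose first base lies at -246 from the start, and 0 GC boxes, while the first held 1 GC box at -13 and 0 E-boxes. The Rab12 window held 1 GC box, at -103, and the Rab3d window 3, the first at -194. The array values do not say which Rab27a start was used. Among 60 promoter windows of the 48 Rab genes in the table, 6 windows (10%) held the E-box, 3 (5%) the AP-1 site and 41 (68.3%) the GC box. Of all 32851 promoter windows, 7.15% held the E-box, 7.81% the AP-1 site and 35.7% the GC box. The 3 motifs do not overlap each other in the windows shown. These matches describe the letters and say nothing about binding.

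The whole data set set the frame for the Rab values. The probe set of Mir155 read 2.86 ± 0.08 in KO and 2.99 ± 0.15 in WT arrays (log2, SD, n = 3 each), below the level of genes taken as silent here, so it checked neither the deletion nor the labels. That level was 3.35, the 95th percentile of 1194 olfactory and vomeronasal receptor genes. KO replicate 1 stood apart on the first principal component, at -32.0, while the other KO arrays were at -5.36 and -7.31 and the WT arrays at 10.6 to 19.5. All 14 mast cell marker genes measured, among them Fcer1a, Kit and Cpa3, lay above the receptor-gene level, with list means of 10.15 to 10.37 on KO and 10.04 to 10.29 on WT arrays. Of these 14, 0 passed limma's adjusted threshold, and at an unadjusted p under 0.05 there were 3 higher and 1 lower. Hdc, Mcpt4 and Srgn were higher on all KO than on all WT arrays (21.4% of the list, against 8.18% of all genes), with differences of 0.84, 0.44 and 0.21, and Mitf differed by -0.29 with overlap. Hdc read 10.72, 10.15 and 9.80 in KO arrays and 8.79, 9.65 and 9.70 in WT arrays (adjusted p = 0.233 by limma). Its KO replicate 3 and WT replicate 3 nearly met. Of 9 macrophage and monocyte markers 4 lay above the receptor-gene level (Csf1r, Cd68, Adgre1 and Cx3cr1) and 5 did not (Mrc1, Cd14, Itgam, Cd163 and Fcgr1). The mean of that list was 4.06 to 4.22 on KO and 4.32 to 4.36 on WT arrays, without overlap. Cx3cr1 was the only one of the 9 past the threshold (difference -0.95, adjusted p = 0.0280 by limma). Of the 9 differences 6 were negative, as were 10372 of the 19938 over all genes. Lower on all KO than on all WT arrays were 2 of the 9 (22.2%), and 0 were higher, against 9.05% and 8.18% of all genes. These shares were not tested. The mean of 8 stromal markers, 4 of them above the level, separated the groups the other way. It was 4.39 to 4.41 on KO and 4.32 to 4.37 on WT arrays, a narrow gap. Of these 8, 0 passed the adjusted threshold and 0 an unadjusted p under 0.05. Without overlap, 1 was higher and 1 lower in KO (12.5% each, against 8.18% and 9.05% of all genes). Basophil and eosinophil markers (6 of 8 above the level, list means 5.34 to 5.56 on KO and 5.22 to 5.70 on WT arrays) and dendritic markers (4 of 8, 3.45 to 3.46 on KO and 3.41 to 3.50 on WT arrays) had overlapping means, as had those of neutrophils, lymphocytes and erythroid cells. The part of these markers in the Rab values was not tested. In such bulk RNA, fewer cells of a type and less RNA per cell cannot be told apart.

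No Rab gene changed by the test used. The test was limma's moderated test over all 19938 genes, with a Benjamini-Hochberg adjusted p under 0.05 as the threshold. Of the 59 Rab genes 0 were called higher and 0 lower, against 0.823% of all genes, 0.507% higher and 0.316% lower. At an unadjusted p under 0.05 there was 1 Rab gene higher in KO, Rab12, and 6 lower, Rab27a, Rab27b, Rab29, Rab3d, Rab31 and Rab28. The shares of all genes were 6.24% higher and 6.45% lower. The 3 KO arrays all lay above the 3 WT arrays for 2 Rab genes, Rab12 and Rab40b (8.18% of all genes), and all below them for 9 (9.05% of all genes). These 9 were Rab27a, Rab27b, Rab3d, Rab29, Rab31, Rab36, Rab8b, Rab1b and Rab10. As shares of the family the counts at an unadjusted p were 1.69% higher and 10.2% lower, and those without overlap 3.39% higher and 15.3% lower. No test was made of these shares. Of the Rab genes 79.7% lay above the receptor-gene level, against 62.8% of all genes, so these shares compare unlike sets. The median difference over the 59 genes was -0.002 on the log2 scale and that over all genes was -0.006. Differences of the family ran from -0.63 to 0.35, and 52 of the 59 were smaller than 0.25 in size.

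**Figure D1:**
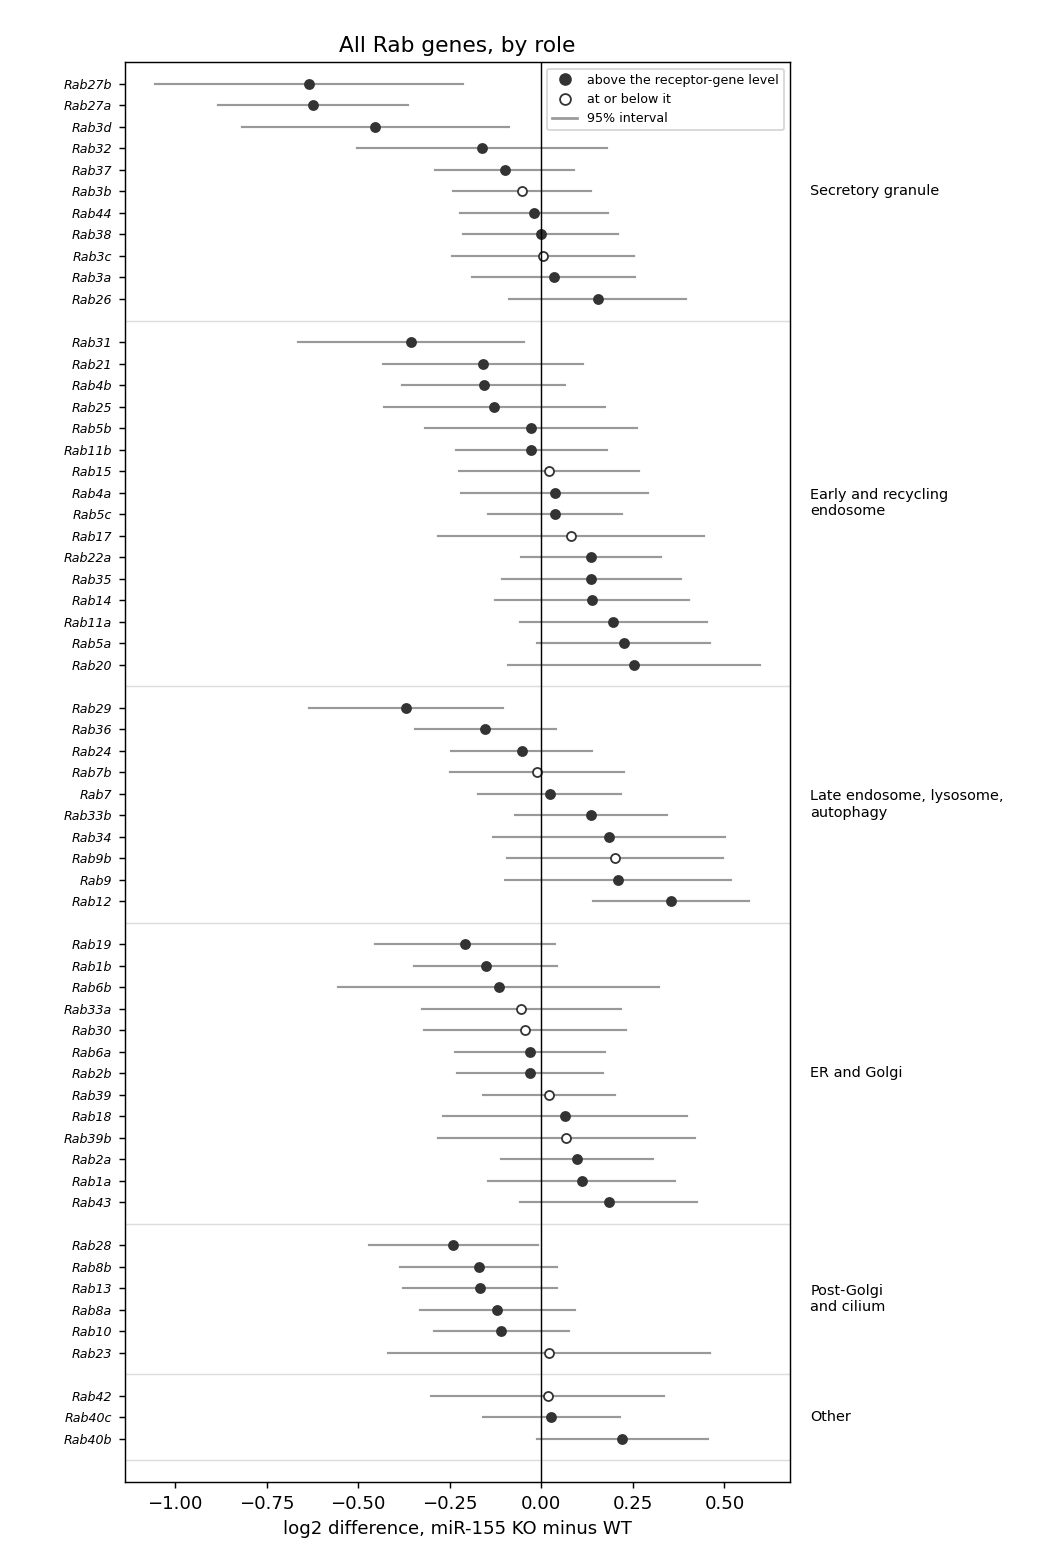
Log2 difference, miR-155 KO minus WT, of each of the 59 Rab genes, grouped by role, with the 95% interval of the moderated test as a line, filled above the receptor-gene level of 3.35 and open at or below it. Rab27b, Rab27a and Rab3d lie farthest to the left and Rab12 farthest to the right.

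Of the 59 Rab genes 47 had a mean over the 6 arrays above the receptor-gene level and 12 did not. The 12 were Rab3b, Rab3c, Rab7b, Rab9b, Rab15, Rab17, Rab23, Rab30, Rab33a, Rab39, Rab39b and Rab42. Their differences lay between -0.05 and 0.20, and none of these 12 passed at an unadjusted p under 0.05. Several are Rabs known mainly from neurons or epithelia, such as Rab3c and Rab17. Different probe sets bind with different strength, so the levels of different Rab genes are not ranked here.

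The Rabs of secretory granules and lysosome-related organelles held the 3 largest differences of the family by size, those of Rab27b, Rab27a and Rab3d, all lower in KO and none past the threshold. Rab27a recruits the fusion factor Munc13-4 and synaptotagmin-like proteins and docks granules at the plasma membrane. It read 7.47, 7.42 and 7.81 in KO replicates 1 to 3, against 8.22, 8.14 and 8.21 in WT replicates 1 to 3 (log2 intensity). All 3 KO arrays lay below all 3 WT arrays, and the WT arrays were closer together than the KO arrays. The difference was -0.62 (SE 0.11, 95% interval -0.88 to -0.36), which is 1.54-fold lower in KO, with an adjusted p of 0.0523 by limma. Over the 15 alternatives tried this p ran from 0.0307 to 0.355 and the difference from -0.75 to -0.55. Rab27a was below the threshold with median centring (0.0480), repeated quantile normalization (0.0320), dim genes left out (0.0451), trend and robust priors (0.0307) and without KO replicate 3 (0.0320), and above it in the other 10.

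Rab27b is the close relative of Rab27a, and in mouse mast cells both are known to act in degranulation. It read 7.89, 8.50 and 8.58 in KO arrays and 8.85, 8.82 and 9.20 in WT arrays. The groups did not overlap, and KO replicate 1, the array that stood apart, was the lowest of the 6. The difference was -0.63 (SE 0.19, 95% interval -1.05 to -0.21, 1.55-fold lower in KO) with an adjusted p of 0.174 by limma. Without KO replicate 1 it was -0.42 (adjusted p = 0.285). Its adjusted p lay between 0.0900 and 0.529 over the 15 alternatives, so it passed in none of them.

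Rab3d, a Rab3 form found on the granules of mast cells and exocrine cells, read 5.02, 5.32 and 5.35 in KO arrays and 5.46, 5.56 and 6.04 in WT arrays. The groups did not overlap, with WT replicate 3 the highest. The difference was -0.45 (SE 0.16, 95% interval -0.82 to -0.09, adjusted p = 0.267 by limma), and without WT replicate 3 it was -0.28 (adjusted p = 0.452). Rab3a, the synaptic vesicle Rab, read 4.39, 4.28 and 4.47 in KO arrays and 4.30, 4.49 and 4.25 in WT arrays, with overlapping groups. Its interval was -0.19 to 0.26. Rab3b read 2.97, 2.86 and 2.95 in KO arrays and 3.03, 3.01 and 2.91 in WT arrays. Rab3c read 3.12, 2.81 and 2.77 in KO arrays and 2.86, 2.86 and 2.96 in WT arrays. Both lay below the receptor-gene level on all 6 arrays, with overlapping groups.

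Further granule Rabs had overlapping groups. Rab37, reported to restrain mast cell secretion by holding Munc13-4, read 8.80, 8.82 and 8.95 in KO arrays and 8.92, 8.99 and 8.97 in WT arrays (interval of the difference -0.29 to 0.09). KO replicate 3 lay above WT replicate 1. Rab44, an unusually large Rab of immune cells with a part in mast cell granule release, read 9.04, 9.13 and 9.16 in KO arrays and 9.24, 9.03 and 9.11 in WT arrays. The values are intermixed, and the 95% interval of -0.22 to 0.18 leaves out a change of the size seen for Rab27a. Rab38, a Rab of melanosomes and related organelles, had a difference of -0.002 (interval -0.21 to 0.21), and its relative Rab32 one of -0.16 (interval -0.50 to 0.18). Rab26, known from secretory granules of exocrine cells, read 3.42, 3.53 and 3.75 in KO arrays and 3.42, 3.50 and 3.32 in WT arrays, close to the receptor-gene level (interval -0.09 to 0.40). Its difference was 0.15, and 0.06 without KO replicate 3. In all, 3 of the 11 granule Rabs (27.3%) had KO arrays below all WT arrays and 0 above, where all genes gave 9.05% and 8.18%. This difference in shares was not tested. Of these 11, 81.8% lay above the receptor-gene level, against 62.8% of all genes. The median over these 11 was -0.05. The counts depend on the grouping, since Rab12 and the Rab5 genes, also reported to act on mast cell granules, were placed in other groups. Rab12 was higher on all KO than on all WT arrays (0.35). Rab5a, Rab5b and Rab5c had overlapping groups, with differences of 0.22, -0.03 and 0.04.

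**Figure D2:**
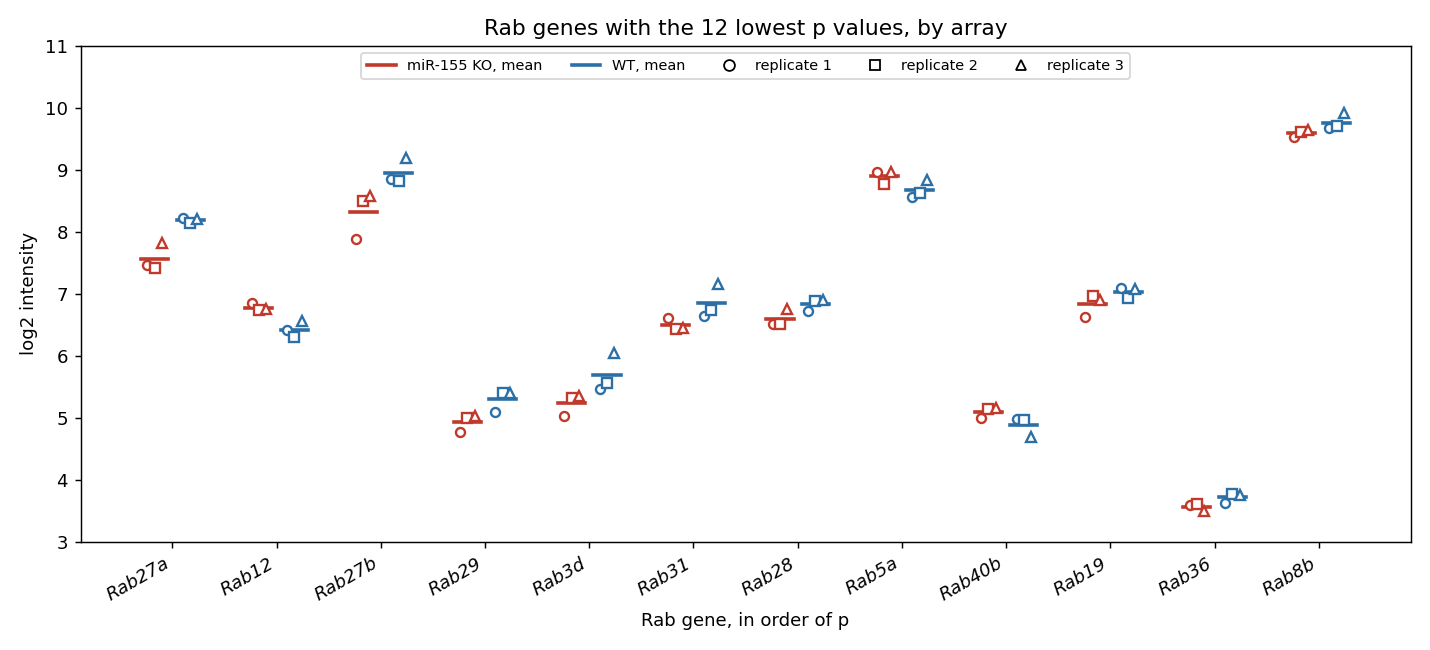
Log2 intensity on each array for the Rab genes with the 12 lowest p values, KO in red left of WT in blue, with a bar at each mean of 3 arrays and a symbol for each replicate number. Rab27a has all KO arrays at 7.81 or lower and all WT arrays at 8.14 or higher, while Rab5a and Rab28 have overlapping groups.

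Rabs of late endosomes, lysosomes and autophagy went both ways. Rab12, which sends the transferrin receptor to lysosomes and in a rat mast cell line moves granules towards the cell centre, read 6.85, 6.74 and 6.75 in KO arrays and 6.42, 6.30 and 6.56 in WT arrays. All KO arrays were above all WT arrays. The difference was 0.35 (SE 0.09, 95% interval 0.14 to 0.57, 1.28-fold higher in KO) with an adjusted p of 0.136 by limma, and 0.0924 to 0.372 over the alternatives. Rab29, a Rab of the trans-Golgi network and lysosomes that binds the kinase LRRK2, read 4.77, 5.00 and 5.02 in KO arrays and 5.09, 5.40 and 5.41 in WT arrays. Its groups did not overlap either, with a difference of -0.37 (SE 0.12, adjusted p = 0.204 by limma).

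Rab7, the main Rab of late endosomes and their fusion with lysosomes, read 8.83, 8.63 and 8.75 in KO arrays and 8.69, 8.75 and 8.71 in WT arrays. The WT arrays lay within the KO range, and the 95% interval of the difference was -0.17 to 0.22. Rab36 read 3.59, 3.60 and 3.50 in KO arrays and 3.63, 3.77 and 3.76 in WT arrays, without overlap and close to the receptor-gene level (adjusted p = 0.525 by limma). The other members of this group, Rab9, Rab24, Rab33b, Rab34, Rab9b and Rab7b, had overlapping groups and differences between -0.05 and 0.21.

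Rabs of early and recycling endosomes, 16 genes, mostly had overlapping groups. Rab5a, which drives early endosome fusion, read 8.96, 8.77 and 8.96 in KO arrays and 8.56, 8.62 and 8.84 in WT arrays. Only WT replicate 3 reached above a KO array, and the difference was 0.22 (interval -0.01 to 0.46, adjusted p = 0.426 by limma). Its paralogue Rab5c read 8.68, 8.62 and 8.73 in KO arrays and 8.61, 8.62 and 8.68 in WT arrays. Rab5b read 7.52, 7.41 and 7.68 in KO arrays and 7.35, 7.55 and 7.79 in WT arrays. Both have intermixed groups, with intervals of -0.14 to 0.22 for Rab5c and -0.32 to 0.26 for Rab5b.

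Rab31, which carries cargo between the Golgi and endosomes, was the 1 of these 16 (6.25%) whose groups did not overlap, a share below the 9.05% lower and 8.18% higher of all genes. It read 6.61, 6.43 and 6.44 in KO arrays and 6.65, 6.74 and 7.15 in WT arrays. The gap between KO replicate 1 and WT replicate 1 was small, and WT replicate 3 lay well above the rest. The difference was -0.36 (SE 0.14, adjusted p = 0.306 by limma), and without WT replicate 3 it was -0.20. Rab11a, the Rab of slow recycling, read 7.64, 7.43 and 7.65 in KO arrays and 7.31, 7.25 and 7.57 in WT arrays. Its groups overlapped through WT replicate 3 (interval -0.06 to 0.45). Rab4a, the Rab of fast recycling, read 6.77, 6.88 and 6.73 in KO arrays and 6.54, 6.91 and 6.82 in WT arrays, with an interval of -0.22 to 0.29. Rab20, known from endosomes and phagosomes of macrophages, had the largest positive difference of these 16 at 0.25 (interval -0.09 to 0.60).

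Rabs of the ER and Golgi, 13 genes, differed by -0.21 to 0.18. Rab1a, which governs transport out of the ER, read 10.11, 10.02 and 10.18 in KO arrays and 9.95, 9.82 and 10.21 in WT arrays. Its groups overlapped, and its difference of 0.11 was 0.02 without WT replicate 2 and 0.22 without WT replicate 3. The groups of its paralogue Rab1b did not overlap, with means of 8.72 ± 0.10 in KO and 8.87 ± 0.02 in WT arrays (adjusted p = 0.537 by limma). Rab6a, which returns vesicles through the Golgi, read 7.66, 7.57 and 7.70 in KO arrays and 7.55, 7.72 and 7.75 in WT arrays. Rab19 had the most negative difference of the 13, with 6.63, 6.97 and 6.89 in KO arrays and 7.10, 6.94 and 7.08 in WT arrays. The groups overlapped in both, with intervals of -0.24 to 0.18 for Rab6a and -0.45 to 0.04 for Rab19. The Rab19 difference was -0.21, and -0.11 without KO replicate 1, the array that stood apart.

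Rabs of post-Golgi transport and the cilium, 6 genes, had 5 negative differences and a median of -0.14. Over all 19938 genes 10372 differences were negative. In this group 2 genes (33.3%) had all KO arrays below all WT arrays and 0 above, against 9.05% and 8.18% of all genes. These shares were not tested. Of the 6 genes 83.3% lay above the receptor-gene level, against 62.8% of all genes. Rab8b, which acts in transport to the plasma membrane, read 9.52, 9.61 and 9.65 in KO arrays and 9.67, 9.71 and 9.91 in WT arrays. The groups were adjacent without overlap (difference -0.17, adjusted p = 0.525 by limma), and without WT replicate 3 the difference was -0.10. Rab8a read 8.48, 8.51 and 8.48 in KO arrays and 8.56, 8.51 and 8.77 in WT arrays, with WT replicate 2 inside the KO range. Its difference was -0.12, and -0.04 without WT replicate 3. Rab10, which brings vesicles to the plasma membrane, averaged 9.24 ± 0.07 in KO and 9.35 ± 0.03 in WT arrays without overlap. Rab28 read 6.51, 6.51 and 6.76 in KO arrays and 6.73, 6.89 and 6.89 in WT arrays, overlapping at KO replicate 3 and WT replicate 1 (adjusted p = 0.365 by limma). A gene outside these groups, Rab40b, a Rab with a SOCS box that links it to ubiquitin ligases, read 5.00, 5.14 and 5.16 in KO arrays and 4.98, 4.96 and 4.70 in WT arrays. KO replicate 1 and WT replicate 1 nearly met (difference 0.22, adjusted p = 0.430 by limma), and without WT replicate 3 the difference was 0.13.

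The genes that load, switch off, carry and read the Rabs were compared in 4 lists with 180 different genes. Of these 0 rose, 1 fell and 179 did not pass, against 0.507% higher and 0.316% lower of all genes. The median difference was -0.01. At an unadjusted p under 0.05, 15 were higher (8.33%) and 27 lower (15.0%) in KO, where all genes gave 6.24% and 6.45%. This difference in shares was not tested. Of the 180 genes 90% lay above the receptor-gene level, against 62.8% of all genes, so these shares too compare unlike sets.

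Among 47 exchange factor genes 0 passed, and the median was -0.06. Rabgef1 encodes Rabex-5, which loads Rab5 with GTP and is known to restrain IgE receptor signalling in mast cells. It read 7.44, 7.05 and 7.10 in KO arrays and 6.67, 6.48 and 6.69 in WT arrays, all KO arrays above all WT arrays. The difference was 0.58 (SE 0.12, adjusted p = 0.0732 by limma, 0.0574 to 0.372 over the alternatives). Dennd4a, an exchange factor for Rab10, read 8.72, 8.91 and 9.02 in KO arrays and 9.38, 9.28 and 9.37 in WT arrays (difference -0.46, SE 0.10, adjusted p = 0.0780 by limma). It passed with trend and robust priors (0.0492) and in no other of the 15 alternatives. Madd, which loads Rab3 and Rab27 proteins, averaged 5.58 ± 0.19 in KO and 5.93 ± 0.12 in WT arrays. Ankrd27, which binds Rab32 and Rab38 and loads Rab21, averaged 6.69 ± 0.16 in KO and 6.99 ± 0.07 in WT arrays. Both were lower on all KO than on all WT arrays, with adjusted p values of 0.225 for Madd and 0.2501 for Ankrd27 by limma.

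Among 36 genes of the GTPase-activating proteins with a TBC domain 0 passed, with a median of -0.005. Tbc1d14, a protein of recycling endosomes and autophagy, read 6.79, 6.84 and 6.83 in KO arrays and 7.18, 7.22 and 7.14 in WT arrays. The 3 KO arrays were close together and below WT (difference -0.36, SE 0.08, adjusted p = 0.0815 by limma). Tbc1d23, which tethers vesicles at the trans-Golgi, read 6.32, 5.76 and 6.71 in KO arrays and 5.40, 4.96 and 5.51 in WT arrays. This was the largest difference of the 180 genes at 0.97 (SE 0.23, adjusted p = 0.104 by limma), and it passed with the replicate block (0.0231) and without KO replicate 2. Tbc1d10c averaged 5.96 ± 0.23 in KO and 6.44 ± 0.06 in WT arrays, and Tbc1d5, which inactivates Rab7, averaged 6.21 ± 0.16 in KO and 6.60 ± 0.04 in WT arrays. Both had an adjusted p of 0.119 by limma.

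Among 15 genes of Rab prenylation and membrane extraction 0 passed. Rabac1, a receptor for prenylated Rabs, averaged 7.35 ± 0.04 in KO and 7.70 ± 0.15 in WT arrays without overlap (adjusted p = 0.153 by limma). Yipf5, a Golgi membrane protein that binds Rabs, averaged 8.76 ± 0.05 in KO and 8.51 ± 0.08 in WT arrays. Chml, an escort protein that presents Rabs for prenylation, averaged 4.53 ± 0.23 in KO and 4.16 ± 0.21 in WT arrays with overlap, and Icmt, which methylates prenylated ends, 6.11 ± 0.10 in KO and 6.36 ± 0.12 in WT arrays.

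Among 83 effector genes 0 rose, 1 fell and 82 did not pass. The 1 was Rab11fip4, an effector of Rab11 on recycling endosomes, which read 4.49, 4.65 and 4.34 in KO arrays and 5.03, 5.06 and 5.28 in WT arrays. All KO arrays lay below all WT arrays, and the gene fell, with a difference of -0.63 (SE 0.11) and limma's adjusted p at 0.0474, close to the threshold. It held in 6 of the 15 alternatives, and its adjusted p ran from 0.0421 to 0.354 over all 15. Of the fits without 1 array it held only in that without KO replicate 2. Without WT replicates 1, 2 and 3 the adjusted p was 0.126, 0.127 and 0.142, and without KO replicates 1 and 3 it was 0.0997 and 0.129. The effectors next in p were Exoc3, a subunit of the exocyst, Vps39, a subunit of the HOPS tether of lysosomes, Rilpl1, which binds phosphorylated Rab8 and Rab10, and Inpp5b, a phosphoinositide phosphatase that binds several Rabs. In each of these 4, picked for their low p, all KO arrays lay below all WT arrays, with differences of -0.34 to -0.38 and adjusted p values of 0.1003 to 0.146 by limma. Over the 83 effectors 16.9% lay lower and 10.8% higher without overlap, against 9.05% and 8.18% of all genes. The difference in shares was not tested. Of these effectors 88% lay above the receptor-gene level, against 62.8% of all genes. Effectors a little further down in p went both ways, all chosen after their values were seen. Higher in KO were Appl1, an adaptor that binds Rab5, at 0.46, Myo5a at 0.43, Rab11fip1, which binds Rab11, at 0.38 and Exoc6 at 0.28. Lower were Plekhm1 at -0.37, Unc13d at -0.34 and Mical1 at -0.47. Each was without overlap and not past the threshold. KO replicate 1, the array that stood apart, lay farthest from the WT arrays in all of these but Rab11fip1. Mical1 read 7.42, 8.04 and 7.92 in KO arrays and 8.25, 8.32 and 8.23 in WT arrays.

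**Figure D3:**
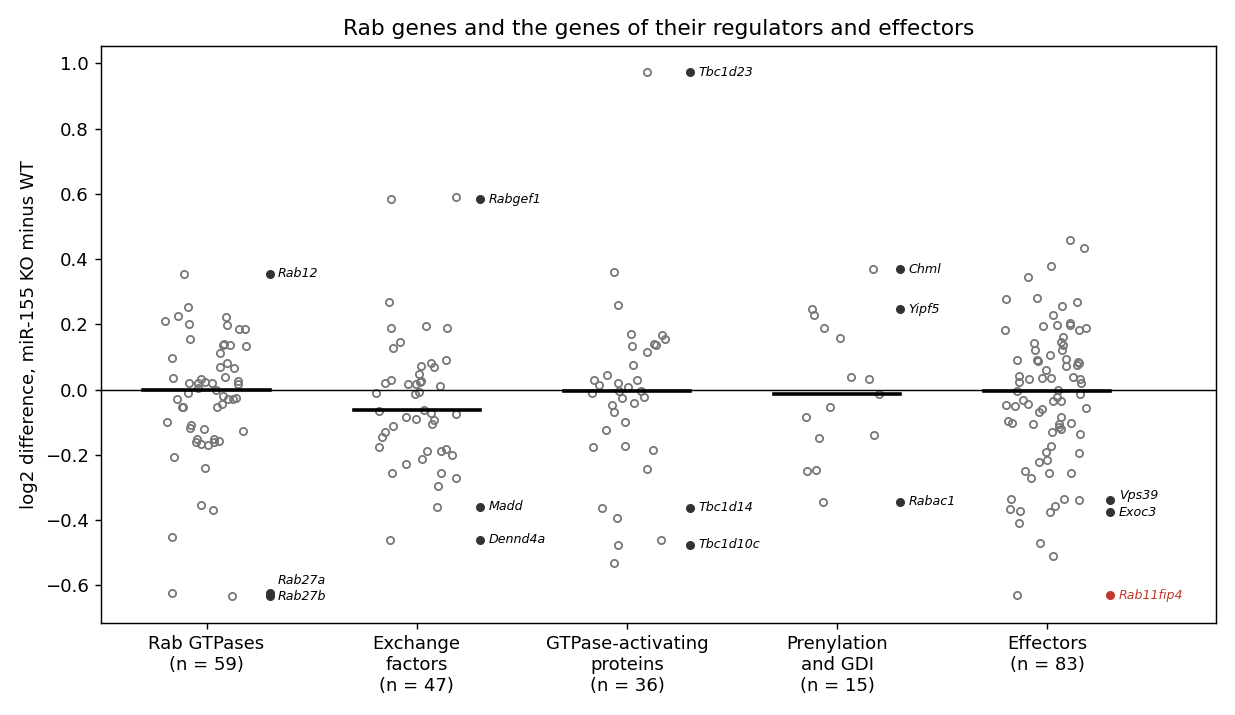
Log2 difference, miR-155 KO minus WT, for the 59 Rab genes and for the genes of their exchange factors, GTPase-activating proteins, prenylation and GDP dissociation inhibitors, and effectors. Each open circle is a gene, the bar is the median of the list, and the 3 genes with the lowest p are drawn again as filled points with their names, in red for Rab11fip4, the only one called.

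Some genes whose products act with Rab27a and Rab27b were looked at after the values had been seen. Unc13d, which encodes Munc13-4 and primes granules for fusion, averaged 6.22 ± 0.16 in KO and 6.56 ± 0.09 in WT arrays without overlap (difference -0.34, adjusted p = 0.202 by limma). Of the synaptotagmin-like genes, Sytl1 averaged 5.35 ± 0.17 in KO and 5.69 ± 0.22 in WT arrays, Sytl2 7.89 ± 0.42 in KO and 8.30 ± 0.17 in WT arrays, and Sytl3 7.97 ± 0.27 in KO and 7.77 ± 0.04 in WT arrays. All 3 had overlapping groups and limma adjusted p values of 0.317 to 0.610. Sytl4 and Sytl5 lay at or below the receptor-gene level. Mlph is the link of Rab27a to myosin Va in pigment cells. It read 6.28, 5.32 and 5.22 in KO arrays and 5.74, 5.74 and 5.75 in WT arrays, a difference of -0.14. KO replicate 1, the array that stood apart, lay above all WT arrays and the other KO arrays below them. Of other effectors in the list, Rph3al differed by -0.13 and Myrip by 0.03 with overlapping groups. Myrip, at 3.38 in KO and 3.35 in WT arrays, lay close to the receptor-gene level. Rph3a differed by 0.07 with all KO arrays above all WT arrays, and Exph5 lay below the receptor-gene level. Myo5a, myosin Va itself, averaged 7.15 ± 0.15 in KO and 6.72 ± 0.22 in WT arrays, with all KO arrays above all WT arrays (adjusted p = 0.179 by limma). Tbc1d10a, a GTPase-activating protein for Rab27a, averaged 7.57 ± 0.40 in KO and 7.21 ± 0.18 in WT arrays with overlap.

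Rab27a, Rab27b, Rab3d and Rab12 kept the sign of their differences in every one of the 15 alternatives, as drawn in the plot of alternatives. Only Rab27a crossed the threshold in any of them.

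**Figure D4:**
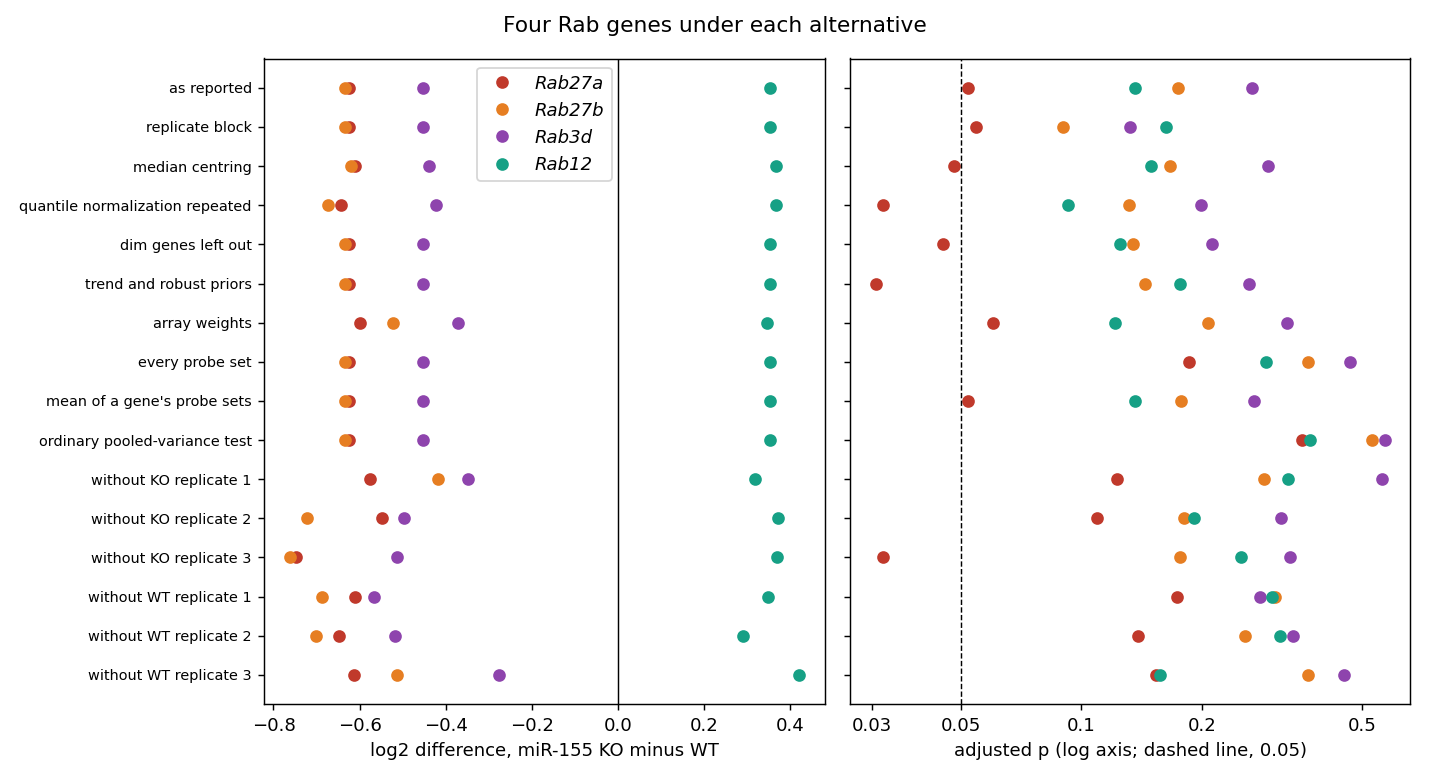
Log2 difference, miR-155 KO minus WT (left), and adjusted p on a log axis (right) for Rab27a, Rab27b, Rab3d and Rab12, as reported and under each of the 15 alternatives. Differences of the first 3 genes stay below 0 and those of Rab12 above 0, and Rab27a lies left of 0.05 in 5 alternatives.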

How the data were processed

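Total RNA of 6 cultures, 3 KO and 3 WT, was hybridised to Affymetrix Mouse Gene 1.0 ST arrays. The deposited values are log2 intensities that the authors made with RMA, per the submitters' processing notes. Its version and the genome build are not stated in those notes or the labels. Since RMA already includes background correction, quantile normalization and summary over probes, no further normalization was applied. The number of arrays, 3 per group, limits the precision, and p-values cover the spread between these cultures.

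Of 35557 probe sets, 21789 had 1 gene symbol in the platform annotation, 1621 several and 12147 none. The probe set with the highest mean stood for each gene, which left 19938 genes. The model had genotype as its only term (limma 3.58.1 under R 4.3.3, eBayes moderation, two-sided, Benjamini-Hochberg over all genes). All differences are KO minus WT and SE is the moderated standard error. The fit was tested on simulated data. Figures used matplotlib 3.10.9.

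The members and lists were chosen with earlier results of these data known. Named are the 12 Rab genes with the lowest p, 19 fixed for their known roles, and from each list of regulators the changed genes and 4 others with the lowest p. Others were chosen after their values were seen. Alternatives were a replicate block, other scalings, priors, weights, filters and feature sets, an ordinary test, and leaving out each array.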

Additional observations from a re-analysis of the deposited data

How the results depend on the processing

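Sign and side of the threshold were compared over 15 alternatives. The number of Rab genes called was 0 as reported and 1, always Rab27a, with median centring, repeated quantile normalization, dim genes left out, and trend and robust priors. It was 0 to 1 without 1 array. The number of regulator and effector genes called was 1 as reported, 0 with median centring, over every probe set and in the ordinary test, 2 with trend and robust priors, and 0 to 3 without 1 array. Over all genes the count of calls was 164 as reported, 4 over every probe set, 0 in the ordinary test and 15 to 167 without 1 array. With the replicate block 0 Rab genes and 1 regulator, Tbc1d23 in place of Rab11fip4, were called, and 199 of all genes. Deviations of samples with the same number correlated at -0.01, -0.06 and 0.24 over all genes. Of the 6 arrays, 2 correlated best with their own number. With 3 arrays per group, these values cannot tell whether samples with the same number were paired. The median difference of the Rab genes stayed between -0.03 and 0.02. Differences near 0 turned sign. Rab3c was at -0.0368 and Rab5b at 0.0098 with array weights, Rab5b at 0.00297 with averaged probe sets, and Rab7 at -0.00403 with repeated quantile normalization. Without 1 array the differences ran from -0.0149 to 0.105 (Rab3a), -0.107 to 0.0696 (Rab3c), -0.0664 to 0.0362 (Rab44), -0.136 to 0.0864 (Rab5b), -0.0236 to 0.0752 (Rab7), -0.0741 to 0.114 (Rab4a) and -0.0919 to 0.00678 (Rab6a). The other genes named by the rule kept their sign in every alternative that included them. For Rab3b these were 14, as it was not in the fit with dim genes left out. The causes were not tested.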

Other observations

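Second probe sets existed for 3 Rab genes and were dimmer than those reported. That of Rab2a averaged 8.47 in KO and 8.46 in WT arrays and that of Rab5b 7.54 in KO and 7.51 in WT arrays. That of Rab11b read 4.13, 3.30 and 3.14 in KO arrays and 3.04, 3.25 and 3.11 in WT arrays, with KO replicate 1 above the other 5 arrays.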
